A study of Mus musculus with 16 samples.

Results

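The genes described here are 35 genes of fatty acid and triglyceride synthesis, taken by symbol from the 41325 genes of the deposited tables, and all 35 were found. They run from the enzymes that supply acetyl-CoA and NADPH, through fatty acid synthesis, elongation and desaturation, to the enzymes that join fatty acids to a glycerol backbone, with 3 regulators of the pathway. The cells were an immortalized line of preadipocytes, precursors of fat cells, from wild type mice of the strain C57Bl6/J. The 4 groups of 4 libraries each were cells at day 6 of differentiation after 16 h of pre-treatment with interleukin-13 (IL-13), cells at day 6 that had received no agent, cells at day 0 after the same pre-treatment, and cells at day 0 that had received no agent. The labels give no driver of the immortalization, and whether each library is a culture of its own is not stated. The p-values therefore cover no more than the spread among these libraries, and that spread may be technical.

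In fat cells, citrate exported from mitochondria is split to acetyl-CoA, which acetyl-CoA carboxylase converts to malonyl-CoA and fatty acid synthase builds into palmitate. Elongases and desaturases modify the chain, and acyltransferases, lipins and diacylglycerol acyltransferases assemble the fatty acids on glycerol 3-phosphate into triglyceride, the stored form of fat. The transcription factors SREBP-1 (gene Srebf1) and ChREBP (gene Mlxipl) are known to drive many of these genes, SREBP-1 in response to insulin and ChREBP in response to glucose. IL-13 is a cytokine of type 2 immunity that signals through the transcription factor STAT6.

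Libraries held between 15253031 and 18112087 counts. Levels are given as CPM, the count of a gene relative to its library's size with sizes scaled together over all 16 libraries, as single libraries or as mean ± SD (n = 4). The labelled cell type was checked against marker genes. A list of 10 adipocyte markers summed to 24400 to 26500 CPM (IL-13) and 22800 to 25100 CPM (untreated) at day 6, against 149 to 157 CPM (IL-13) and 124 to 139 CPM (untreated) at day 0. A list of 11 preadipocyte and fibroblast markers summed to 2190 to 2790 CPM (IL-13) and 2230 to 2800 CPM (untreated) at day 6, and to 13100 to 14700 CPM (IL-13) and 8510 to 11700 CPM (untreated) at day 0. In every library 8 macrophage markers together stayed at or under 11.9 CPM, with Adgre1 and Cd163 at 0, 5 endothelial markers at or under 4.06 CPM, 4 lymphocyte markers at or under 0.132 CPM, 4 hepatocyte markers at or under 0.680 CPM and 3 epithelial markers at or under 0.308 CPM. A list of 22 nuclear-retained RNAs and transcripts of RNA-processing factors, written after the data had been seen, moved with the pre-treatment. It summed to 1580 to 2320 CPM (IL-13) against 2610 to 3860 CPM (untreated) at day 6, and to 1860 to 2110 CPM (IL-13) against 2230 to 3090 CPM (untreated) at day 0. The part of this difference in the IL-13 results below was not tested beyond the fits named beside them. The sums did not overlap between IL-13 and untreated libraries of either day, so those fits cannot tell its part from that of the pre-treatment.

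Between day 0 and day 6 the pathway changed in nearly all its genes. In IL-13 pre-treated cells 32 of the 35 genes differed between the days at an adjusted p under 0.05 (edgeR's quasi-likelihood test with Benjamini-Hochberg adjustment), 28 higher (40.6% of all tested genes) and 4 lower (40.3% of all tested genes) at day 6. In untreated cells 34 differed, 28 higher (41.5% of all) and 6 lower (39% of all). These are 91.4% of the 35 genes in pre-treated and 97.1% in untreated cells, set against 80.8% (pre-treated) and 80.5% (untreated) of all tested genes, so that most genes of any kind were called. Libraries of the days did not overlap for 27 genes that were higher and 4 that were lower in pre-treated cells, against 37.3% and 37.4% of all tested genes, and for 28 that were higher and 6 that were lower in untreated cells, against 38.8% and 36.6%. Genes called and at least 2-fold higher at day 6 numbered 23 of 35 in pre-treated cells, against 20.7% of all tested genes, and 24 of 35 in untreated cells, against 20.9%. Genes at least 2-fold lower numbered 3 in pre-treated cells, against 18.4% of all tested genes, and 3 in untreated cells, against 17.8%. The median log2 change of the 35 genes was 2.58 in pre-treated and 2.68 in untreated cells, while that of all tested genes was 0.00122 in pre-treated and 0.0382 in untreated cells. The 35 genes together took 5.17% ± 0.11 of all counts in pre-treated and 5.0% ± 0.13 in untreated cells at day 6, against 0.654% ± 0.0045 in pre-treated and 0.669% ± 0.016 in untreated cells at day 0 (SD, n = 4). CPM values cannot tell apart more RNA per cell from more cells of a type, and the share of cells that had become adipocytes is not known from these data. Day 0 and day 6 were also deposited in separate tables, and any difference between the libraries of the tables cannot be told apart from the day.

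**Figure D1:**
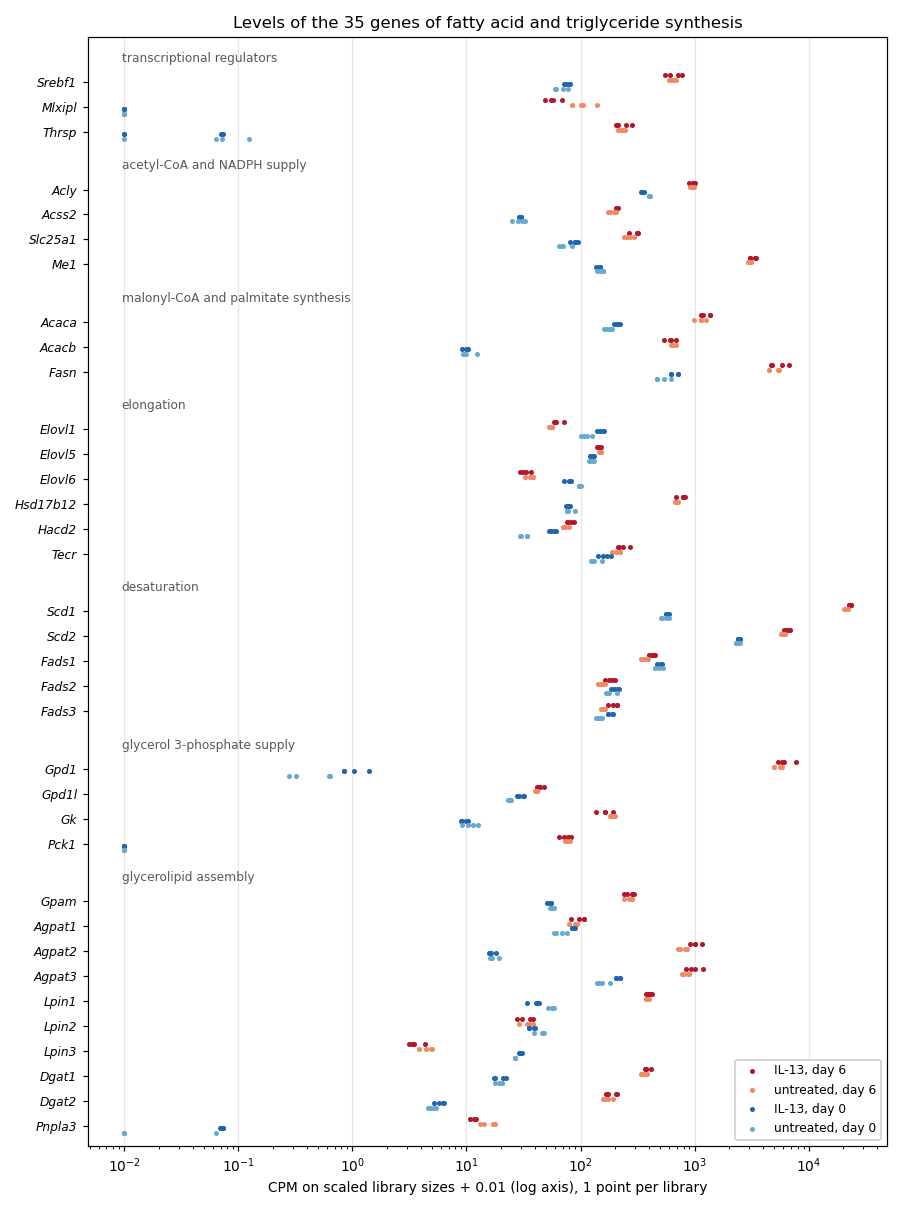
Each row is a gene and each point a library, placed by its CPM plus 0.01 on a log axis; colours mark the IL-13 and untreated groups at day 6 and at day 0, and rows are grouped by role. Most genes sit further right at day 6, while Elovl1, Elovl6 and Lpin3 sit further left, and within a day the IL-13 and untreated points lie close together or overlap for most genes.

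All 3 regulators were higher at day 6. Mlxipl, the gene of ChREBP (ENSMUSG00000005373), lies on the plus strand at chr5:135089890-135138382 (GRCm38, the mm10 build of the tables). It had 57.2, 49.2, 55.6 and 68.4 CPM in the IL-13 libraries and 138, 105, 84.5 and 102 CPM in the untreated libraries of day 6, and no count in any of the 8 libraries of day 0. Set against 3 counts over the 4 libraries of a day 0 group, this is at least 1250-fold higher at day 6 in pre-treated and at least 2570-fold higher in untreated cells, a limit that covers counting error only. At day 6 the highest IL-13 library stood below the lowest untreated library. Exons of an antisense gene overlap 4.24% of its exon bases. Thrsp, a small nuclear protein induced with lipid synthesis, had 215, 206, 280.2 and 252 CPM (IL-13) and 236, 215, 228 and 245 CPM (untreated) at day 6, against 2 counts (IL-13) and 4 counts (untreated) in all at day 0. The ratio of day 6 to day 0 was 7730 in pre-treated cells (95% counting interval 2140 to 63800) and 4150 in untreated cells (1620 to 15200). Srebf1 differed from these 2 genes in that it was already present at day 0. Srebf1 had 551, 608, 774 and 709.8 CPM in the IL-13 libraries and 691, 594, 671 and 639.7 CPM in the untreated libraries of day 6, against 72.3, 81.6, 78.6 and 75.1 CPM (IL-13) and 60.4, 59.5, 70.7 and 76.8 CPM (untreated) at day 0. It was 8.59-fold higher at day 6 in pre-treated cells (log2 3.10 ± 0.10 SE, adjusted p = 3.27e-16) and 9.7-fold in untreated cells (log2 3.28 ± 0.10, adjusted p = 1.49e-16), with no overlap between the days.

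The starts of genes that the results turn on are shown as the 250 bases before each start in RefSeq's annotation of GRCm38.p6, with capitals marking letters that match a motif on either strand: the E-box CACGTG known for ChREBP, SREBP-1 and USF factors, the sterol element TCACNCCAC, the CCAAT box of factor NF-Y, and the STAT6 element, TTC and GAA with any 4 bases between them. Mlxipl has 2 starts in the table, and in mice its alternative starts are known to give ChREBP forms that differ in length and activity. The counts here are per gene and do not separate the starts. The upstream window (chr5:135089640-135089889, plus strand) holds CACGTG at positions -98 to -93 from the start and ATTGG at -173 to -169. The downstream window (chr5:135106641-135106890, plus strand) holds TCACACCAC at -136 to -128. The window of Fasn (chr11:120824548-120824797, minus strand) holds CCAAT or its complement ATTGG at 3 places, of which 2 overlap. The window of Lpin1 (chr12:16610967-16611216, minus strand), the lipin that differed most with IL-13 at day 0, holds TTCTACAGAA at -47 to -38. The window of Hacd2 (chr16:35022171-35022420, plus strand), the gene with the smallest adjusted p among the 31 tested for IL-13 at day 0, holds none of the 4 motifs.
Mlxipl, upstream start: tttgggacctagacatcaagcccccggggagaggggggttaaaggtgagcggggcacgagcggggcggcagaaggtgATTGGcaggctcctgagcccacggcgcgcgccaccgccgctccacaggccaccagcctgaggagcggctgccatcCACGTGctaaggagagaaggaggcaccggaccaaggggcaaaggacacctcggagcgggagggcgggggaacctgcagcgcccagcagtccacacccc
Mlxipl, downstream start: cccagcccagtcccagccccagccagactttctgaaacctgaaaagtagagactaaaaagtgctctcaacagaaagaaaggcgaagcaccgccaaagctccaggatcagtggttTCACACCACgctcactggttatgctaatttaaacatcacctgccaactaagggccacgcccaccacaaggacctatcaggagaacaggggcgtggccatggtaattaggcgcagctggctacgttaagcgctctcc
Fasn: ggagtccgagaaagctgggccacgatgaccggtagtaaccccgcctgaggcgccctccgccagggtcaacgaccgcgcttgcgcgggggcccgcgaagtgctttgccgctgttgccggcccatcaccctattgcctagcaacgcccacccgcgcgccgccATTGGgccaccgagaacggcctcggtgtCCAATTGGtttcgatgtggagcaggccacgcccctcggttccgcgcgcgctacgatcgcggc
Lpin1: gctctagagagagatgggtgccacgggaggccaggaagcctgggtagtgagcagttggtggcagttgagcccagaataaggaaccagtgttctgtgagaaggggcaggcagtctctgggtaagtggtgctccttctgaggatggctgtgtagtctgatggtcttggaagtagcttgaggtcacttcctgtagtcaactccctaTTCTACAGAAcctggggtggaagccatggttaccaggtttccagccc
Hacd2: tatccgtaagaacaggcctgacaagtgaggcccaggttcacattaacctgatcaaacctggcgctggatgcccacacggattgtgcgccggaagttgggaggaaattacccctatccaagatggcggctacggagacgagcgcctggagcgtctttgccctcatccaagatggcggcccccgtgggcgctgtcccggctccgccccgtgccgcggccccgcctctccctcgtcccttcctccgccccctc
Of the 35 genes, 29 had an entry in the table, with 39 starts in all. CACGTG stood in 6 of the 39 windows (15.4%), against 6.02% of 32817 windows of the same length over all genes, and TCACNCCAC in 1 (2.56%, against 1.05%). CCAAT stood in 19 (48.7%, against 33.8%) and the STAT6 element in 2 (5.13%, against 5.85%). These are matches of letters, counted on both strands, and say nothing on whether a factor was bound.

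The 4 genes that supply acetyl-CoA and NADPH were all higher at day 6. Acly, ATP citrate lyase, forms acetyl-CoA from exported citrate. Acly had 965, 892, 967 and 1009 CPM in the IL-13 libraries and 970.1, 926, 982 and 911 CPM in the untreated libraries of day 6, against 361, 347, 339 and 356 CPM (IL-13) and 398, 396, 401 and 410.3 CPM (untreated) at day 0. This was 2.73-fold higher at day 6 in pre-treated cells (log2 1.45 ± 0.05 SE, adjusted p = 4.27e-16) and 2.36-fold in untreated cells (log2 1.24 ± 0.05, adjusted p = 5.54e-15). Slc25a1, the mitochondrial citrate carrier, averaged 302 ± 23 CPM (IL-13) and 264 ± 22.3 CPM (untreated) at day 6, against 88.3 ± 5.86 CPM (IL-13) and 72 ± 8.71 CPM (untreated) at day 0. Acss2, which makes acetyl-CoA from acetate, averaged 209 ± 4.07 CPM (IL-13) and 189.7 ± 14.6 CPM (untreated) at day 6, against 29.5 ± 0.613 CPM (IL-13) and 29.1 ± 3.29 CPM (untreated) at day 0. Me1, the cytosolic malic enzyme that yields NADPH, changed the most of the 4, with 3214 ± 203 CPM (IL-13) and 3055 ± 91.9 CPM (untreated) at day 6, against 145 ± 5.69 CPM (IL-13) and 151 ± 9.36 CPM (untreated) at day 0, which was 22.2-fold higher in pre-treated and 20.2-fold higher in untreated cells. Of all stretches of 50 bases in Me1 transcripts, 22.9% also occur in transcripts of other genes, with Gm7049 sharing the most. The authors' counting may therefore split reads between the genes.

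The enzymes of malonyl-CoA and palmitate synthesis were all higher at day 6, and the 2 acetyl-CoA carboxylases by very different amounts. Fasn encodes fatty acid synthase (chr11:120805846-120824547, minus strand). Fasn had 4782, 4706, 6759.8 and 5854 CPM in the IL-13 libraries and 5524, 4522, 5377 and 4463 CPM in the untreated libraries of day 6, against 624, 711, 719 and 623 CPM (IL-13) and 469, 468, 618 and 538 CPM (untreated) at day 0. It was 8.26-fold higher at day 6 in pre-treated cells (log2 3.05 ± 0.13 SE, adjusted p = 9.36e-15) and 9.49-fold in untreated cells (log2 3.25 ± 0.13, adjusted p = 3.74e-15), and every library of day 6 exceeded every library of day 0. Acaca, the cytosolic carboxylase, feeds fatty acid synthase. Acaca had 1353, 1186, 1364 and 1135 CPM in the IL-13 libraries and 1267, 1132, 1137 and 988 CPM in the untreated libraries of day 6, against 214, 209, 223 and 198 CPM (IL-13) and 172, 181, 189 and 162 CPM (untreated) at day 0. This was 5.97-fold higher in pre-treated and 6.43-fold higher in untreated cells. Of the 50-base stretches of Acaca, 30.4% also occur in transcripts of other genes, with Gm5182 sharing the most. The level of Acaca is therefore uncertain, by an amount that was not tested. Acacb, the carboxylase of the mitochondrial surface whose malonyl-CoA is known to restrain fatty acid oxidation, averaged 612 ± 59 CPM (IL-13) and 649 ± 27.9 CPM (untreated) at day 6, against 9.84 ± 0.475 CPM (IL-13) and 10.3 ± 1.43 CPM (untreated) at day 0, which was 62.1-fold higher in pre-treated and 62.9-fold higher in untreated cells. Per length, in the authors' deposited TPM, which corrects for transcript length, the level of Acacb over that of Acaca was 0.867 ± 0.11 (IL-13) and 1.02 ± 0.065 (untreated) at day 6, against 0.0829 ± 0.0060 (IL-13) and 0.105 ± 0.021 (untreated) at day 0.

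Elongation genes moved in both directions. Each cycle of elongation needs an elongase (Elovl genes), a reductase (Hsd17b12), a dehydratase (Hacd2) and a second reductase (Tecr). Hsd17b12 rose to 774 ± 56.2 CPM (IL-13) and 692 ± 16.1 CPM (untreated) at day 6, against 78 ± 2.95 CPM (IL-13) and 79.9 ± 5.9 CPM (untreated) at day 0, 9.91-fold higher in pre-treated and 8.66-fold higher in untreated cells. Elovl6, which extends palmitate to stearate, fell to 32.9 ± 3.17 CPM (IL-13) and 36.2 ± 2.62 CPM (untreated), against 78.4 ± 4.34 CPM (IL-13) and 98.1 ± 2.33 CPM (untreated) at day 0. Its log2 change was -1.25 ± 0.07 SE in pre-treated and -1.44 ± 0.07 SE in untreated cells. Elovl1, an elongase of saturated very long chains, also fell, by 2.41-fold in pre-treated and 2.03-fold in untreated cells. Tecr rose 1.43-fold in pre-treated and 1.57-fold in untreated cells, and Elovl5, which extends polyunsaturated chains, rose by 1.16-fold in pre-treated and 1.2-fold in untreated cells.

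Of the desaturases both Scd genes rose, while the 3 Fads genes differed little between the days. Scd1, stearoyl-CoA desaturase, makes oleate and lies at chr19:44394451-44407709 on the minus strand. Scd1 had 22735, 23380.3, 22326 and 23286 CPM in the IL-13 libraries and 20526, 20660.0, 21955 and 22146 CPM in the untreated libraries of day 6, against 591, 563, 560.2 and 569.8 CPM (IL-13) and 513, 565, 599 and 508 CPM (untreated) at day 0. It was 40.2-fold higher at day 6 in pre-treated cells (log2 5.33 ± 0.08 SE, adjusted p = 8.63e-22) and 39-fold in untreated cells (log2 5.29 ± 0.08, adjusted p = 8.03e-22). Scd2, the related gene at chr19:44293676-44306864 on the plus strand, changed less. Scd2 had 6300.1, 6524, 6112 and 6790.4 CPM in the IL-13 libraries and 5768, 5832, 6026 and 6175 CPM in the untreated libraries of day 6, against 2511, 2489, 2417 and 2393 CPM (IL-13) and 2309, 2414, 2519.7 and 2318 CPM (untreated) at day 0. This was 2.62-fold higher in pre-treated and 2.49-fold higher in untreated cells. In TPM the order of the pair turned over: Scd1 over Scd2 was 4.02 ± 0.11 (IL-13) and 4.04 ± 0.050 (untreated) at day 6, against 0.263 ± 0.0058 (IL-13) and 0.257 ± 0.010 (untreated) at day 0. Between 3.97% and 4.56% of the 50-base stretches of these genes also occur in transcripts of other genes, with another Scd gene sharing the most. At day 6 Scd1 ranked 5 (IL-13) and 4 (untreated) among all genes by TPM, against 365 (IL-13) and 316 (untreated) at day 0. Fads1 and Fads2 encode the front-end desaturases of polyunsaturated fatty acids, and Fads3 is a related gene of the same cluster. Fads1 fell by 0.24 in pre-treated and by 0.41 in untreated cells on the log2 scale. Fads2 passed the test in untreated but not in pre-treated cells (log2 -0.14 ± 0.07 in pre-treated and -0.25 ± 0.07 in untreated cells). Fads3 had log2 changes of 0.10 ± 0.06 in pre-treated and 0.11 ± 0.06 in untreated cells, neither of which passed the test.

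Genes that provide glycerol 3-phosphate were all higher at day 6. Gpd1, the cytosolic glycerol 3-phosphate dehydrogenase long used as a marker of fat cell formation, makes the backbone from a glycolytic intermediate. Gpd1 had 5815, 5400.4, 7705 and 6103 CPM in the IL-13 libraries and 5794, 4968, 5576 and 4941 CPM in the untreated libraries of day 6, against 0.838, 1.39, 0.831 and 1.02 CPM (IL-13) and 0.614, 0.308, 0.633 and 0.268 CPM (untreated) at day 0. The fold at day 6 was 6113 in pre-treated cells (log2 12.58 ± 0.18 SE) and 11399 in untreated cells (log2 13.48 ± 0.19 SE), on 66 (IL-13) and 33 (untreated) counts in all at day 0. Of the exon bases of Gpd1, 13.0% are overlapped by exons of an antisense gene, and whether counting used the strand is not given in the sources used here. Pck1, which makes the backbone without glucose, had 70.9, 78.4, 81.8 and 65.2 CPM (IL-13) and 75.6, 74, 81.4 and 72.9 CPM (untreated) at day 6 and no count at day 0, so it was at least 1600-fold higher in pre-treated and at least 1820-fold higher in untreated cells. Gk, glycerol kinase, averaged 164 ± 23 CPM (IL-13) and 191 ± 9.73 CPM (untreated) at day 6, against 9.56 ± 0.608 CPM (IL-13) and 10.9 ± 1.44 CPM (untreated) at day 0. Gpd1l, the paralog of Gpd1, rose only 1.47-fold in pre-treated and 1.7-fold in untreated cells, so that Gpd1 over Gpd1l in TPM was 242 ± 25 (IL-13) and 223 ± 22 (untreated) at day 6, against 0.0590 ± 0.019 (IL-13) and 0.0323 ± 0.013 (untreated) at day 0.

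Glycerolipid assembly is catalysed in turn by GPAT (Gpam), AGPAT enzymes, lipins and DGAT enzymes, and at each of the last 3 steps the related genes changed by different amounts. Gpam, the mitochondrial acyltransferase of the first step, had 296, 280.4, 258 and 239 CPM (IL-13) and 285, 284, 266 and 239 CPM (untreated) at day 6, against 55.2, 53.7, 51 and 54.7 CPM (IL-13) and 55.7, 58.7, 56.6 and 54.2 CPM (untreated) at day 0, 5.0-fold higher in pre-treated and 4.77-fold higher in untreated cells. Agpat2, the AGPAT whose loss is known to cause lipodystrophy in people and mice, lies at chr2:26593057-26604417 on the minus strand. Agpat2 had 902, 1009, 1159 and 1012 CPM in the IL-13 libraries and 713, 739.9, 827 and 861 CPM in the untreated libraries of day 6, against 16.3, 15.7, 18.1 and 16.2 CPM (IL-13) and 16.2, 16.4, 19.2 and 16.8 CPM (untreated) at day 0. This was 61.6-fold higher at day 6 in pre-treated cells (log2 5.94 ± 0.10 SE, adjusted p = 1.15e-21) and 45.8-fold in untreated cells (log2 5.52 ± 0.10, adjusted p = 2.63e-21). Agpat3 rose 4.62-fold in pre-treated and 5.35-fold in untreated cells and Agpat1 1.14-fold in pre-treated and 1.33-fold in untreated cells, the libraries of Agpat1 overlapping between the days in pre-treated cells. In TPM, Agpat2 over Agpat1 was 14.6 ± 0.96 (IL-13) and 12.6 ± 0.91 (untreated) at day 6, against 0.271 ± 0.019 (IL-13) and 0.367 ± 0.020 (untreated) at day 0.

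Lipins convert phosphatidate to diacylglycerol, and Lpin1 and Lpin3 moved in opposite directions. Lpin1 had 392, 406, 375 and 424 CPM in the IL-13 libraries and 383, 372, 383 and 402 CPM in the untreated libraries of day 6, against 40.4, 34.1, 43.2 and 41.3 CPM (IL-13) and 52.2, 55.8, 58.5 and 57.5 CPM (untreated) at day 0. Lpin1 was 10-fold higher at day 6 in pre-treated cells (log2 3.33 ± 0.07 SE, adjusted p = 4.21e-20) and 6.88-fold in untreated cells (log2 2.78 ± 0.07, adjusted p = 4.43e-19). Lpin3 had 3.34, 3.47, 4.34 and 3.15 CPM (IL-13) and 4.38, 4.99, 3.82 and 4.93 CPM (untreated) at day 6, against 29.2, 29, 29.3 and 30.6 CPM (IL-13) and 26.8, 26.5, 26.5 and 26.5 CPM (untreated) at day 0. Lpin3 was thus 8.27-fold lower at day 6 in pre-treated and 5.84-fold in untreated cells, and it passed from the most to the least abundant lipin per length. Its TPM was 2.82 ± 0.324 (IL-13) and 3.92 ± 0.485 (untreated) at day 6, where Lpin1 was at 121 ± 9.46 (IL-13) and 127 ± 3.29 (untreated). At day 0 the TPM of Lpin3 was 25.5 ± 1.64 (IL-13) and 26.6 ± 1.48 (untreated), and that of Lpin1 was 13.1 ± 1.43 (IL-13) and 21.4 ± 1.14 (untreated). Lpin2 changed by log2 -0.18 ± 0.10 in pre-treated cells, which did not pass the test, and by -0.40 ± 0.10 in untreated cells, which did. The last step, from diacylglycerol to triglyceride, is run by Dgat1 and Dgat2. Dgat1 had 365, 376, 416 and 373 CPM in the IL-13 libraries and 365, 340.5, 349 and 385 CPM in the untreated libraries of day 6, against 17.9, 17.5, 20.8 and 22.1 CPM (IL-13) and 20.5, 19.1, 20.4 and 17.9 CPM (untreated) at day 0. Dgat2 had 165, 173, 207 and 203 CPM in the IL-13 libraries and 164, 158, 176 and 193 CPM in the untreated libraries of day 6, against 6.23, 6.33, 5.7 and 5.17 CPM (IL-13) and 5.07, 4.8, 4.6 and 5.41 CPM (untreated) at day 0. Dgat1 was thus 19.5-fold higher in pre-treated and 18.5-fold higher in untreated cells, and Dgat2 31.9-fold in pre-treated and 34.7-fold in untreated cells, while Dgat2 stayed below Dgat1 in TPM (ratio 0.484 ± 0.042 in IL-13 and 0.476 ± 0.027 in untreated cells at day 6, against 0.301 ± 0.060 in IL-13 and 0.254 ± 0.032 in untreated cells at day 0). Pnpla3, a lipase and acyltransferase of lipid droplets induced by SREBP-1 in liver, was at 4 counts (IL-13) and 1 count (untreated) over the groups of day 0, and its ratio of day 6 to day 0 was 189 in pre-treated (95% counting interval 73.6 to 696) and 1120 in untreated cells (200 to 44100).

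**Figure D2:**
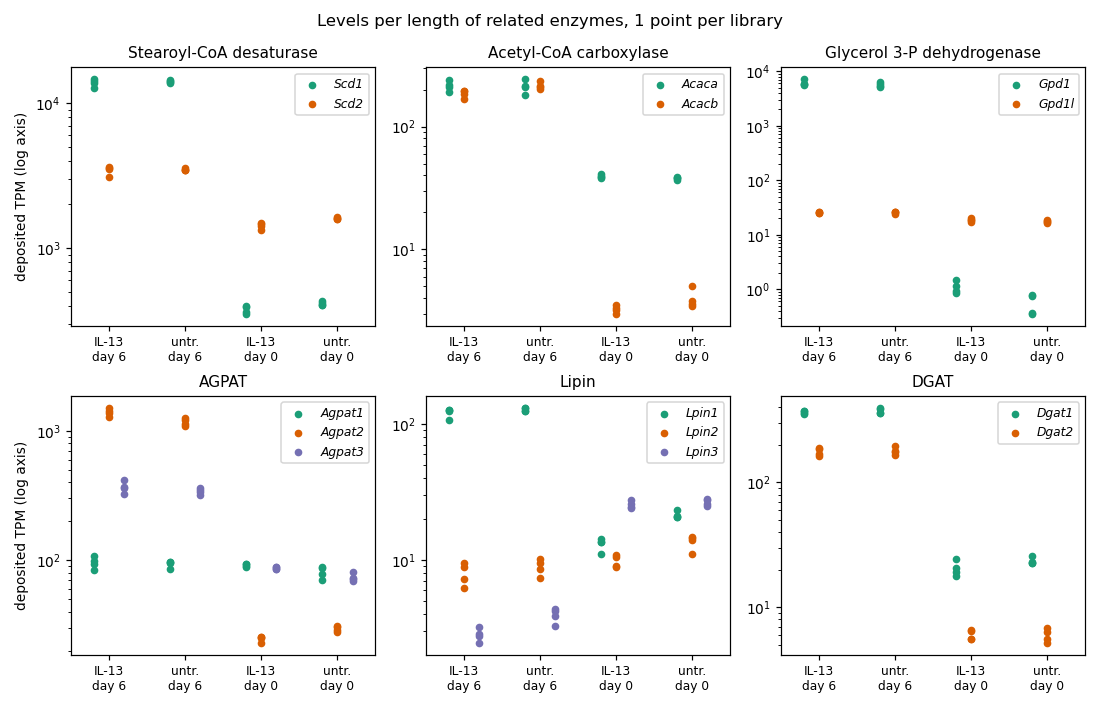
Deposited TPM of related enzymes in each library (log axis, 1 point per library) for the IL-13 and untreated groups of day 6 and day 0. The order within the Scd, Gpd1, AGPAT and lipin families differs between the days. Scd1 over Scd2, for example, was at 4.02 and 4.04 at day 6 against 0.263 and 0.257 at day 0 (IL-13 and untreated).

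Further genes of the pathway were taken as lists beside the 35. Of 24 further synthesis enzymes 20 could be tested, and 15 were higher and 4 lower at day 6 in pre-treated cells, with the same counts in untreated cells, or 95% called in each. Their median log2 change was 1.40 in pre-treated and 1.44 in untreated cells. Gpat3, an acyltransferase of the first step at the endoplasmic reticulum, averaged 136 ± 3.41 CPM (IL-13) and 121 ± 5.64 CPM (untreated) at day 6, against 5.11 ± 0.595 CPM (IL-13) and 4.41 ± 0.41 CPM (untreated) at day 0. Gpd2, the mitochondrial glycerol 3-phosphate dehydrogenase, rose 5.79-fold in pre-treated and 8.07-fold in untreated cells. Of 18 regulators, 10 were higher and 3 lower in pre-treated cells and 11 higher and 2 lower in untreated cells, or 72.2% called in each, below the 80.8% (pre-treated) and 80.5% (untreated) of all tested genes. Cebpa, a transcription factor of fat cell formation, rose 17.9-fold in pre-treated and 11-fold in untreated cells, and Nr1h3, the liver X receptor alpha that is known to induce Srebf1, rose 30.8-fold in pre-treated and 25.7-fold in untreated cells. Ppargc1b, a coactivator that works with SREBP-1, rose 22.2-fold in pre-treated and 55.8-fold in untreated cells. Of 8 further NADPH suppliers, 5 were higher and 1 lower in pre-treated cells (75% called) and 6 higher and 1 lower in untreated cells (87.5% called), among them G6pdx, the first enzyme of the pentose phosphate pathway, at 3.97-fold in pre-treated and 4.05-fold in untreated cells.

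At day 0, IL-13 pre-treatment was followed by modest changes in both directions. Of the 31 genes that could be tested, 15 were called, 11 higher and 4 lower after IL-13, or 48.4% against 47.9% of all tested genes. The shares of all tested genes called higher and lower were 23.7% and 24.2%, and the median log2 fold change was 0.0496 over the 31 genes and -0.0111 over all. The groups did not overlap for 10 genes that were higher and 3 that were lower, against 20.9% and 19.5% of all tested genes. The count of called genes was thus near the background of a comparison in which so many genes differed. The 4 genes not tested were Mlxipl, Thrsp, Pck1 and Pnpla3, which were at or near 0 counts. With libraries scaled by total count alone, which moved the median of all genes to -0.131, 19 of the 31 were called, 10 higher and 9 lower. How many of all tested genes were called with that scaling is not given here. As a share of raw counts the 35 genes were slightly lower after IL-13. Their summed CPM on scaled libraries was higher (6680 ± 154 after IL-13 against 6240 ± 336 in untreated cells).

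Hacd2, the dehydratase of the elongation cycle, had the smallest adjusted p of the 31 genes tested. It had 52.9, 54.8, 61.3 and 58.1 CPM after IL-13 and 29.3, 33.6, 34 and 30.1 CPM in untreated cells, so all IL-13 libraries were above all untreated ones. This was 1.77-fold higher (log2 0.83 ± 0.07 SE, adjusted p = 1.23e-07). Of the 50-base stretches of Hacd2, 6.74% also occur in transcripts of other genes, with Gm7908 sharing the most. Of the other elongation genes Elovl1 was higher, at 147, 158, 159.9 and 139 CPM after IL-13 and 100.2, 113, 126 and 108 CPM in untreated cells (log2 0.42 ± 0.07, adjusted p = 0.000125), without overlap. Tecr was higher too (log2 0.28 ± 0.08, adjusted p = 0.0111), with overlapping libraries, and it was not called with total-count scaling. Elovl6 was lower, at 78.4 ± 4.34 CPM after IL-13 and 98.1 ± 2.33 CPM in untreated cells (log2 -0.34 ± 0.05, adjusted p = 0.000146). Elovl5 and Hsd17b12 had log2 fold changes of -0.01 ± 0.05 and -0.05 ± 0.06 and were not called.

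Early steps moved apart. Fasn averaged 669 ± 52.8 CPM after IL-13 and 524 ± 71.2 CPM in untreated cells (log2 0.34 ± 0.09, adjusted p = 0.00515), the lowest IL-13 library at 623 CPM lying just above the highest untreated one at 618 CPM. Acaca was higher by log2 0.25 ± 0.06 (adjusted p = 0.00213) and Slc25a1 by 0.28 ± 0.07 (adjusted p = 0.006). Acly was lower, with the 4 IL-13 libraries at 339 to 361 CPM and the 4 untreated ones at 396 to 410.3 CPM (log2 -0.21 ± 0.05, adjusted p = 0.00323). Srebf1 did not pass the test (log2 0.19 ± 0.08, adjusted p = 0.062), nor did Scd1 or Scd2 (log2 0.05 ± 0.06 and 0.02 ± 0.06). Among the Fads genes Fads3 was called, at 175, 194, 190.2 and 174 CPM after IL-13 and 136, 142, 156 and 149 CPM in untreated cells (log2 0.32 ± 0.06, adjusted p = 0.000369).

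In glycerolipid assembly 2 AGPAT genes were higher and 2 lipins lower after IL-13 at day 0. Agpat3 had 203, 222, 222 and 206 CPM after IL-13 and 140.0, 155, 182 and 146 CPM in untreated cells (log2 0.44 ± 0.07, adjusted p = 0.000166). Agpat1 had 83.7, 89.7, 87.5 and 84.1 CPM after IL-13 and 61.5, 58.9, 76 and 68.3 CPM in untreated cells (log2 0.37 ± 0.07, adjusted p = 0.000599). Neither overlapped between the groups, while Agpat2 had a log2 fold change of -0.06 ± 0.08 and was not called. Lpin1 averaged 39.7 ± 3.93 CPM after IL-13 and 56 ± 2.76 CPM in untreated cells and was lower in every IL-13 library than in any untreated one (log2 -0.51 ± 0.07, adjusted p = 4.37e-05). Lpin2 was lower as well, with overlap (log2 -0.27 ± 0.07, adjusted p = 0.00747), and Lpin3 was not called (log2 0.14 ± 0.06, adjusted p = 0.0685). Gpd1 had the largest fold of the 31 genes tested, 2.17 (log2 1.12 ± 0.33, adjusted p = 0.0115). Its levels were 0.838, 1.39, 0.831 and 1.02 CPM after IL-13 and 0.614, 0.308, 0.633 and 0.268 CPM in untreated cells. Gpd1l was higher by log2 0.31 ± 0.07 (adjusted p = 0.00166). Gk, Gpam, Dgat1 and Dgat2 were not called, with log2 fold changes from -0.20 (Gk) to 0.22 (Dgat2).

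Of the preadipocyte and fibroblast markers, whose sums are given above, 6 of 10 tested were called higher and 1 lower after IL-13 at day 0. Of the adipocyte markers, 2 of 3 tested were called higher and 0 lower, with a median log2 fold change of 0.697. Of all tested genes, 23.7% were called higher and 24.2% lower. The part of either marker list in the results was not tested. The nuclear RNAs named above were lower after IL-13 in 19 of the 20 tested, with a median log2 fold change of -0.76. With their summed level as a covariate, 2 of the 31 genes were called at day 0, Hacd2 (adjusted p = 0.000315) and Lpin1 (adjusted p = 0.000727), and 8.25% of all genes. That level did not overlap between the groups, so the fit cannot tell it apart from the pre-treatment. Without the 2 untreated libraries highest in these RNAs, libraries 1 and 4, 11 were called, 10 of them among the 15. Leaving out any single library gave 15 to 18 calls that included all 15. For the fits with libraries left out, the share of all tested genes called is not given here. Their counts therefore have no background beside them.

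Among the other pathway genes at day 0, 5 of 16 tested synthesis enzymes were higher and 3 lower after IL-13, 5 of 18 regulators were higher and 4 lower, and 5 of 8 NADPH suppliers were higher and 1 lower. The shares called were 50% of the enzymes, 50% of the regulators and 75% of the NADPH suppliers, against 47.9% of all tested genes, so the enzymes and regulators were near the background. Pparg, the nuclear receptor that directs fat cell formation, averaged 93.5 ± 6.18 CPM after IL-13 and 62.8 ± 1.81 CPM in untreated cells (log2 0.56 ± 0.05, adjusted p = 9.66e-07). Insig1, which retains SREBP in the endoplasmic reticulum and is itself an SREBP target, averaged 115 ± 11.4 CPM after IL-13 and 175 ± 9.49 CPM in untreated cells (log2 -0.62 ± 0.07, adjusted p = 8.52e-06). Cebpa was lower, at log2 -0.50 ± 0.07 (adjusted p = 4.93e-05). Pgd, of the pentose phosphate pathway, was higher by log2 0.50 ± 0.07 (adjusted p = 7.17e-05), and Hacd4, a relative of Hacd2, was lower, at log2 -0.50 ± 0.06 (adjusted p = 1.52e-05). The median log2 fold change was 0.0878 for the enzymes, 0.0469 for the regulators and 0.216 for the NADPH suppliers, against -0.0111 over all tested genes.

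**Figure D3:**
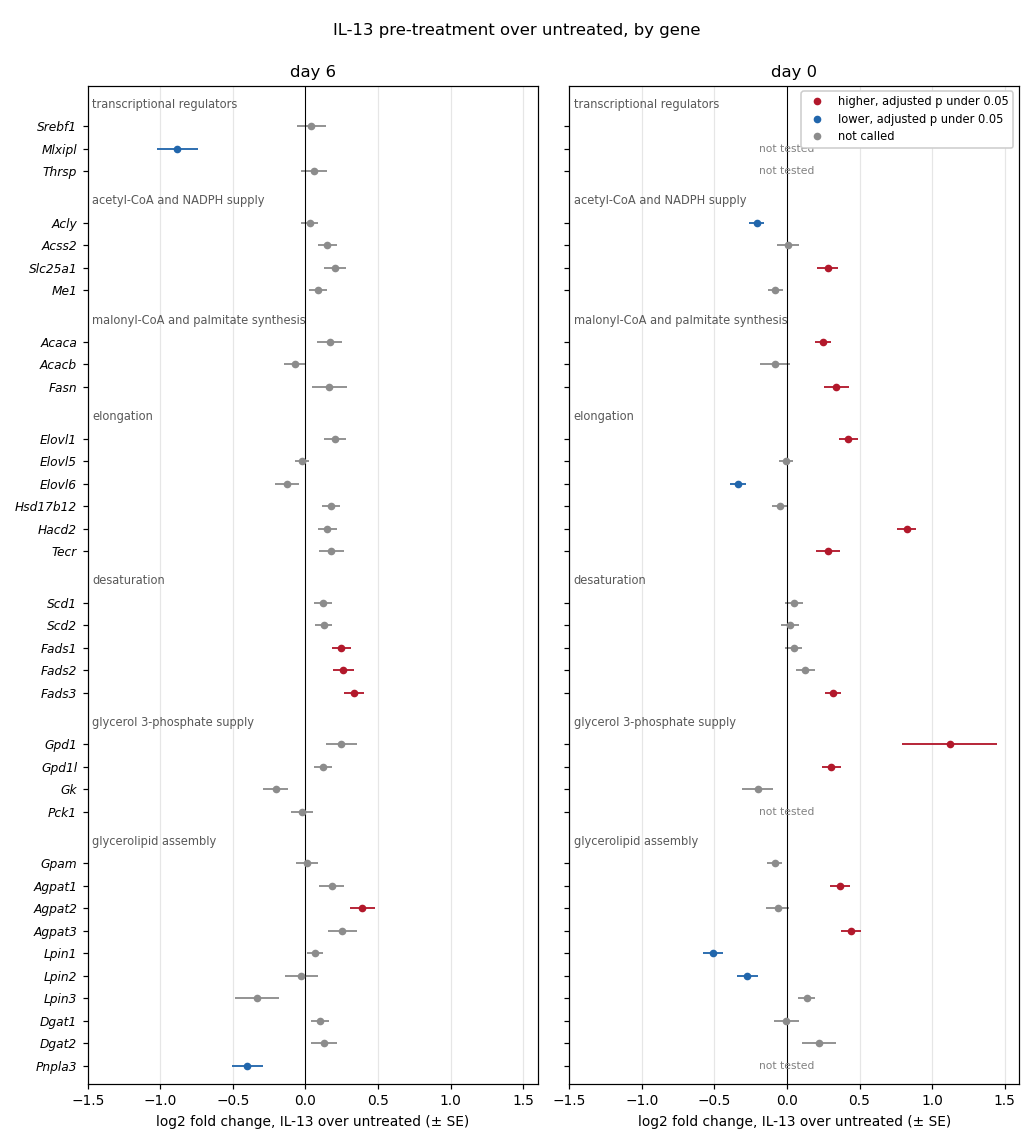
Log2 fold change of IL-13 over untreated cells with its SE for each gene, at day 6 (left) and day 0 (right); red and blue mark genes called higher and lower and grey those not called. At day 0 Gpd1 (1.12, SE 0.33), Hacd2 (0.83) and Lpin1 (-0.51) lie furthest from 0, and at day 6 Mlxipl (-0.88), where most other genes lie slightly to the right of 0.

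At day 6, all 35 genes could be tested and 6 were called, 4 higher and 2 lower in cells that had been pre-treated with IL-13, or 17.1% against 6.55% of all tested genes. The shares of all tested genes called higher and lower were 2.21% and 4.34%. The median log2 fold change was 0.121 over the 35 genes and 0.00882 over all, and 26 of the 35 had a higher estimate after IL-13. Groups did not overlap for 7 genes that were higher (Scd1, Elovl1, Fads1, Fads2, Fads3, Agpat2 and Gpd1l) and 2 that were lower (Mlxipl and Pnpla3), against 7.21% and 8.27% of all tested genes. With total-count scaling 4 were called, 2 higher and 2 lower, with no share of all tested genes given for that scaling. All 9 tested adipocyte markers had a higher estimate after IL-13, with a median log2 fold change of 0.196, above that of the 35 genes. Of these markers 4 had an unadjusted p under 0.05 and 1, Adipoq, was called, and their part in the results was not tested.

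Mlxipl showed the largest difference of the 35 at day 6. As given above, the 4 IL-13 libraries held 49.2 to 68.4 CPM and the 4 untreated ones 84.5 to 138 CPM, which put pre-treated cells 1.85-fold lower (log2 -0.88 ± 0.14 SE, adjusted p = 0.0125). Pnpla3 was also lower, with 11.7, 10.7, 12.2 and 11.9 CPM after IL-13 and 17.7, 17, 13.2 and 14.1 CPM in untreated cells (log2 -0.40 ± 0.11, adjusted p = 0.0478). The other 2 regulators were not called: the log2 fold change was 0.04 ± 0.10 for Srebf1 and 0.06 ± 0.09 for Thrsp, with overlapping libraries. Fasn, Acaca and Acly had log2 fold changes of 0.17 ± 0.12 (adjusted p = 0.405), 0.17 ± 0.09 (adjusted p = 0.225) and 0.03 ± 0.06 (adjusted p = 0.784), none of which passed the test.

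Agpat2 was higher, as the per-library values above show: the lowest IL-13 library, at 902 CPM, stood above the highest untreated one, at 861 CPM (log2 0.39 ± 0.09, adjusted p = 0.0286). The 3 Fads genes, which lie within chr19:10041548-10196870, were higher together. Fads1 had 395, 425, 446 and 428 CPM after IL-13 and 337, 347, 369 and 387 CPM in untreated cells (log2 0.25 ± 0.06, adjusted p = 0.0418). Fads2 had 164, 177, 199 and 189 CPM after IL-13 and 144, 150.4, 162 and 157 CPM in untreated cells (log2 0.26 ± 0.07, adjusted p = 0.0489). Fads3 had 176, 209.6, 208 and 193 CPM after IL-13 and 151, 165, 160.2 and 153 CPM in untreated cells (log2 0.33 ± 0.07, adjusted p = 0.0221). With total-count scaling Fads1 and Fads2 were not called, and with RLE scaling (edgeR's form of DESeq2's size factors) Fads2 was not. The 3 genes share a locus and may not be 3 separate observations, which was not tested. Scd1, the most abundant of the 35, had no overlap between the groups but did not pass the test (log2 0.12 ± 0.06, adjusted p = 0.243), and Scd2 had log2 0.12 ± 0.06 (adjusted p = 0.21). No gene of acetyl-CoA and NADPH supply, palmitate synthesis, elongation or glycerol 3-phosphate supply was called at day 6 by edgeR, among 17 tested.

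The number of calls at day 6 changed with the library left out. Without untreated library 1 or untreated library 2 only Mlxipl was called, without IL-13 library 2 none was (12 at an unadjusted p under 0.05), without IL-13 library 3 only Mlxipl, without IL-13 library 4 Mlxipl and Fads3, without untreated library 3 there were 4 and without IL-13 library 1 there were 10. Mlxipl kept its direction in these fits, with log2 fold changes from -0.98 to -0.74 and adjusted p from 0.00502 to 0.0513. How many of all tested genes were called in these fits is not given here, so the counts have no background beside them. Untreated libraries 1 and 2 were also the highest in the nuclear RNAs, of which 14 of 20 tested were called lower after IL-13 at day 6. Without both of those libraries, or with the summed nuclear RNAs as a covariate, edgeR called none of the 35 (4 and 0 at an unadjusted p under 0.05), and 2 and 0 genes of all tested. Mlxipl was then at log2 -0.70 (adjusted p = 0.119) and -0.38 (adjusted p = 0.671). The summed nuclear RNAs did not overlap between IL-13 and untreated libraries, so the covariate cannot be told apart from the pre-treatment. DESeq2 on all 8 libraries called the same 6 genes.

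**Figure D4:**
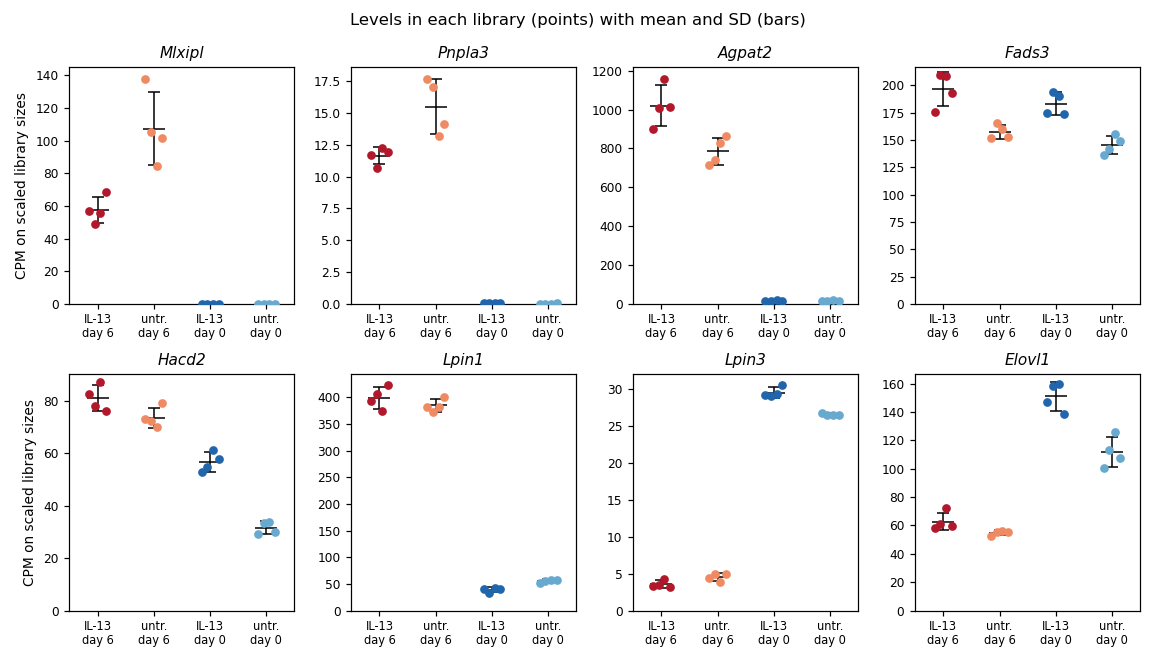
CPM of 8 genes in each library (points), with mean and SD as bars, in the IL-13 and untreated groups of day 6 and of day 0; each axis starts at 0. Mlxipl lies at 49.2 to 68.4 CPM after IL-13 and 84.5 to 138 CPM in untreated cells at day 6 and at 0 at day 0, while Hacd2 differs at day 0 and little at day 6.

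Of the other pathway genes at day 6, 1 of 19 tested synthesis enzymes was higher and 1 lower after IL-13, where 6.55% of all tested genes were called. Elovl3, an elongase of thermogenic fat, averaged 723 ± 52.4 CPM after IL-13 and 583 ± 42.4 CPM in untreated cells (log2 0.32 ± 0.07, adjusted p = 0.0278), and Acss1, the mitochondrial acetyl-CoA synthetase, was lower at 3.57 ± 0.787 CPM after IL-13 and 6.18 ± 1.11 CPM in untreated cells (log2 -0.77 ± 0.18, adjusted p = 0.032). None of 18 regulators was called by edgeR, with 5 at an unadjusted p under 0.05, and DESeq2 called 1, Mlxip, the paralog of Mlxipl, lower. Of 7 tested NADPH suppliers, G6pdx (log2 0.25 ± 0.06, adjusted p = 0.0353) and Pgd (log2 0.32 ± 0.09, adjusted p = 0.0489) were higher.

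The difference between the IL-13 effect at day 6 and that at day 0 was tested in one fit of all 16 libraries. Of the 35 genes, 4 were called, or 11.4% against 8.06% of all tested genes. For Agpat2 and Lpin1 the effect was higher at day 6 than at day 0, against 3.12% of all genes, and for Hacd2 and Lpin3 it was lower, against 4.95%. Hacd2 had the smallest adjusted p. It had 82.8, 78.1, 87.3 and 76.3 CPM after IL-13 and 73.2, 72.3, 70 and 79.2 CPM in untreated cells at day 6, where it was not called (log2 0.15 ± 0.06), and the effect was lower than at day 0 at log2 -0.70 ± 0.09 (adjusted p = 2.45e-05). Lpin1, lower after IL-13 at day 0, was at log2 0.07 ± 0.06 at day 6, a difference of 0.55 ± 0.09 (adjusted p = 0.000337). Agpat2 differed by 0.43 ± 0.12 (adjusted p = 0.0311) and Lpin3, at 3.58 ± 0.53 CPM after IL-13 and 4.53 ± 0.545 CPM in untreated cells at day 6, by -0.50 ± 0.14 (adjusted p = 0.0253).

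Hacd2 and Lpin1 were called for this difference whichever library was left out. Lpin3 was not called when any of 13 of the 16 libraries was left out (adjusted p from 0.0597 to 0.116) nor with total-count scaling or without the filter, and Agpat2 was not called without untreated library 3 or IL-13 library 2 of day 0 (adjusted p = 0.0651 and 0.0549). Without IL-13 library 2 of day 0, the number called fell to 2. With total-count scaling the 5 called were 4 higher and 1 lower, with no share of all tested genes given for that scaling. Other pathway genes differed as well: of 18 regulators, Cebpa (0.70 ± 0.10, adjusted p = 4.25e-05) and Insig1 (0.53 ± 0.11, adjusted p = 0.00323) were higher and Pparg (-0.53 ± 0.08, adjusted p = 0.000151) and Ppargc1b (-1.33 ± 0.25, adjusted p = 0.00153) lower in this difference. Of 20 further synthesis enzymes, Gpd2 (-0.48 ± 0.09, adjusted p = 0.0016) and Agpat5 (-0.41 ± 0.11, adjusted p = 0.0293) were lower. None of 8 NADPH suppliers was called by edgeR, with 2 at an unadjusted p under 0.05, and DESeq2 called 1, Idh1, higher.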

How the data were processed

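Total RNA was isolated on spin columns and sequenced with a stranded mRNA kit, per the labels' protocols, and the build was mm10, per the submitters' processing notes. No aligner, counter or strand setting is named in the labels or files. Per the file headers the authors deposited, for each day in its own table, raw gene counts, RPKM, TPM and CPM on adjusted library sizes, which is treated as a score, with their own comparisons. Of these, the counts were tested and the deposited TPM was used to compare genes; the RPKM, score and comparison columns were not used.

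Counts were tested with edgeR 4.0.16 (R 4.3.3): TMM scaling, filterByExpr (minimum count 10, minimum total 15), a robust quasi-likelihood fit, a two-sided F test and Benjamini-Hochberg adjustment over all genes tested, and genes under 0.05 were called. Fits of IL-13 within a day held its 8 libraries, other fits all 16. SE is the absolute log2 fold change over the square root of F. DESeq2 1.42.0, other scalings, no filter, a replicate block, each library left out and a nuclear RNA covariate were tried. No 2 libraries of a group agreed within sampling noise. Genes with values in every library are a panel of 15 and, per IL-13 comparison, up to 6 called genes with the largest change; other genes are given by mean or range, and up to 4 per further list by smallest p. The members, panel and lists were chosen with earlier results of these data known. Gene starts and promoter sequences are RefSeq's for GRCm38.p6.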

Additional observations from a re-analysis of the deposited data

Results flagged for a closer look

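At day 0 a library stood apart from the other 3 of its group for 2 of the 35 genes, out of 131 gene and group combinations checked; chance alone gives this in about 5% of groups. Lpin3 was at 30.6 CPM in IL-13 library 4 and at 29.0 to 29.3 CPM in the other IL-13 libraries. Hsd17b12 was at 88.7 CPM in untreated library 2 and at 76.1 to 78.1 CPM in the other untreated libraries. The 2 are different libraries.

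The IL-13 effect differed between day 6 and day 0, by edgeR's test of the difference, for 4 genes. The difference on the log2 scale was 0.43 for Agpat2, 0.55 for Lpin1, -0.50 for Lpin3 and -0.70 for Hacd2, with the adjusted p-values given above.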

How the results depend on the processing

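Over all 35 genes, 5 comparisons and the alternatives run, 3436 values were recomputed: 3292 kept their direction and side of the threshold, 80 lost a call, 60 gained one and 4 reversed. The 4 came with the nuclear RNA covariate, chosen after seeing the data: Slc25a1 at -0.0238 and Tecr at -0.00842 at day 0, and Fads2 at -0.0188 and Agpat2 at -0.0111 at day 6 (log2). With it the calls were 2 for IL-13 at day 0, 0 at day 6 and 11 for the difference between days. The share of all tested genes is not given for the 11, and within a day this covariate cannot be told apart from the pre-treatment. Without the 2 untreated libraries of day 6 highest in those RNAs, also chosen after seeing the data, 0 were called at day 6. With a replicate block, 15 were called at day 6 (12 higher, 3 lower; 22.8% of all genes). Libraries with the same number correlated at 0.318, 0.0422, 0.298 and 0.331 at day 6 (2 of 4 best with their own number) and at 0.241, -0.118, 0.343 and 0.156 at day 0 (3 of 4), and nothing in the labels ties the numbers, so the numbers do not establish pairs; the block moved no other count by over 1.5 times. Leaving out 1 library gave 15 to 18 calls for IL-13 at day 0, 0 to 10 at day 6, 34 to 35 between days in untreated and 31 to 34 in pre-treated cells, and 2 to 5 for the difference. The cause of these shifts was not tested, and not all of these counts have the share of all tested genes beside them. Mlxipl, Pck1, Thrsp and Pnpla3 were too low at day 0 to be compared there.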
